A study of Mus musculus with 4 samples.

Results

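The part holds 8 mouse genes whose human counterparts are recurrently mutated or fused in peripheral T cell lymphoma. Of these, 1 was called different in the CD4+ lymphomas of Tet2 gene trap mice. Over all genes 4.27% were called in either direction and 2.46% were called lower. Tnfrsf21, which encodes a death domain receptor, was 3.76-fold lower. The kinase gene Fyn was 1.45-fold higher on the lymphoma arrays without passing the test. The genes Rhoa, Vav1, Plcg1, Prkcb, Ccnd3 and Traf3ip2 differed by less than 0.30 log2 units between the groups, and none of them passed. The 8 genes were chosen by name from what is known of human disease, with earlier results of these data known, and all 8 were among the 19938 genes measured. For each gene the probe set with the highest mean over the arrays was used. These are measurements of transcript level, and no mutation or fusion was examined.

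The series held 4 single-channel Affymetrix arrays, with 2 arrays in each of 2 groups. The lymphoma group was CD4+ lymphoma cells of the spleen in mice homozygous for a Tet2 gene trap, an inserted cassette that interrupts the transcript of this 5-methylcytosine dioxygenase. The control group was wild type CD4+ splenocytes, and all mice were labelled C57BL/6. Cells of both groups were bound by a biotinylated antibody to CD4 and held on magnetic columns after lysis of red cells. The sources used here give neither the age of the mice nor the purity of the cells. The trap allele and the tumour always occurred together, so their effects cannot be told apart. Each sample carries a number, with no statement that the samples came from separate animals, so p-values measure the spread between these samples, which may be technical.

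All of these genes except TNFRSF21 and TRAF3IP2 act in signalling from the T cell receptor to migration and cell division. FYN is a Src family kinase that acts close to the receptor. VAV1 is an exchange factor that loads small GTPases with GTP, and the small GTPase RHOA controls the actin cytoskeleton and migration. PLCG1 cuts a membrane lipid into diacylglycerol and inositol trisphosphate, and diacylglycerol activates the protein kinase C enzymes, PRKCB among them. CCND3 is a D cyclin that drives cells through G1. TNFRSF21, also called death receptor 6, restrains CD4+ T cell expansion in mice, and TRAF3IP2, also called Act1, is the adaptor of the interleukin 17 receptor. In human tumours FYN and TRAF3IP2 can be joined in a fusion transcript, and VAV1 and PLCG1 carry activating changes.

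The arrays were alike in overall signal, with median intensities between 129.8 and 142 over 35556 probe sets. Tet2 had intensities of 979.9 and 1016 in wild type and 596 and 399 in lymphoma (adjusted p = 0.0771, limma). The T cell markers Cd3e and Cd4 had intensities between 4552 and 5823 in wild type and between 5839 and 7720 in lymphoma, so these defining markers were present in both groups. Of 11 T cell markers 1 (Thy1, named after its value was seen) fell and none rose. Of 11 measured markers of B cells, 9 fell and none rose. Their summed intensity was 15098 and 22934 in wild type and between 2971 and 3650 in lymphoma. Of 12 markers of macrophages and monocytes 9 fell, from sums of 12327 to 12356 down to sums of 3374 to 4746. Of 9 dendritic cell markers 6 fell, from sums of 4434 to 5303 down to 940 and 941. Of 5 plasma cell markers 2 fell, with sums of 6542 to 10749 in wild type and 3006 to 3556 in lymphoma. Neutrophil markers went the other way, with all 7 differences positive and 1 (Ngp, named after its value was seen) called higher, from sums of 655 to 695 up to 1009 to 1019.7. Their log2 differences ran from 0.0024 to 1.49 with a median of 0.15, so most were small. None of the 6 markers of CD8 T cells and natural killer cells or the 5 of erythroid cells was called. No marker of these lists was listed at 0, and the lowest intensity among them was 13.1.

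Tnfrsf21 is shown first because it is the gene that was called. Its promoter window is printed beside that of Fyn, the gene with the next largest difference. Each window runs from 250 bases before to 50 bases after the annotated start, 5′ to 3′ on the gene's strand (RefSeq, GRCm38.p6, both plus strand). The Tnfrsf21 window is chr17:43016305-43016604 and the Fyn window is chr10:39369549-39369848. Capitals mark every match on either strand to 7 textbook promoter elements, which do not overlap one another in these windows.
Tnfrsf21: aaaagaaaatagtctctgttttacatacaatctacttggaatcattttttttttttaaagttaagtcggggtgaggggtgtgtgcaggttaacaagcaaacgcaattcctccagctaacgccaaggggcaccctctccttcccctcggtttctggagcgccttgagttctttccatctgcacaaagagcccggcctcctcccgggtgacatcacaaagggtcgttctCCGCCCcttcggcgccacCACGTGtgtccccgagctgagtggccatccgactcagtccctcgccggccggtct
Fyn: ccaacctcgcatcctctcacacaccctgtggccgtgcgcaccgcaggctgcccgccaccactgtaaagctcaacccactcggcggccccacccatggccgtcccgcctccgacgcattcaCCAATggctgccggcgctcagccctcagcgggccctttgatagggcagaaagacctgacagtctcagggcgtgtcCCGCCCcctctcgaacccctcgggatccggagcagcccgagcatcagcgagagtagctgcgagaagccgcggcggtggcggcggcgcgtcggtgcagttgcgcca
The elements searched were the E-box CACGTG, the AP-1 element TGANTCA, the cyclic AMP response element TGACGTCA, the CCAAT box CCAAT, the GC box GGGCGG, the TATA box TATAAA and the E2F element TTTCGCGC. In Tnfrsf21 the capitals are a GC box on the minus strand starting 23 bases before the start site and an E-box starting 5 bases before it. In Fyn they are a CCAAT box 130 bases before the start and a GC box on the minus strand 55 bases before it. The E-box occurred in 7.15% of 32851 RefSeq windows of this length, the GC box in 35.7% and the CCAAT box in 37.4%. The AP-1 element occurred in 7.81%, the TATA box in 13.6%, the cyclic AMP response element in 1.79% and the E2F element in 0.323%. Windows were found for 7 of the 8 genes, all but Traf3ip2, and numbered 9 because Rhoa and Ccnd3 each have 2. The GC box was in 8 of these 9 windows, the CCAAT box in 3, and the E-box and TATA box in 1 each. The Tnfrsf21 window held 17 CpG sites and the Fyn window 31, against a median of 7 over all windows. Fewer sites were found in 68.6% of windows for Tnfrsf21 and in 89.4% for Fyn. Methylation was not measured here.

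Tnfrsf21 fell in lymphoma. Its intensities were 605 and 626 in wild type and 134 and 201 in lymphoma. The wild type values lay close together, the lymphoma values differed from each other by 0.58 log2 units, and the groups did not overlap. The log2 difference was -1.91 (SE 0.24, 95% interval -2.49 to -1.33, adjusted p = 0.011, limma with Benjamini-Hochberg adjustment over 19938 genes). Across all genes 4.27% were called in either direction and 2.46% were called lower, beside 1 of these 8. A larger absolute difference was found in 1.53% of all genes. Without wild type array 1 the difference was -1.93, and without wild type array 2 it was -1.89. The call ended in both cases, as did the call on every other gene, so its end is not particular to Tnfrsf21. In those fits the spread came from the lymphoma pair. Without lymphoma array 1 the difference was -1.62 and without lymphoma array 2 it was -2.20, and both passed with the spread taken from the wild type pair.

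B cell, macrophage and dendritic cell markers fell on the same arrays as Tnfrsf21, with the summed intensities given above, and their part in its fall was not tested. In bulk samples, fewer cells of a type and less transcript per cell cannot be told apart. The 3 genes whose profiles over the 4 arrays were most like that of Tnfrsf21 were Gria3, Tgfbi and Hmox1. Their Euclidean distances after centring were 0.06, 0.10 and 0.13 log2 units. Gria3, a glutamate receptor subunit, had intensities of 126 and 125 in wild type and 26.5 and 41.1 in lymphoma. Tgfbi, a secreted matrix protein, had 1298 and 1269 in wild type and 295 and 442 in lymphoma. Hmox1, the inducible haem oxygenase, had 1615 and 1822 in wild type and 378 and 523 in lymphoma. All 3 had their lowest value on lymphoma array 1, as Tnfrsf21 did, which follows from choosing them by its profile.

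**Figure D1:**
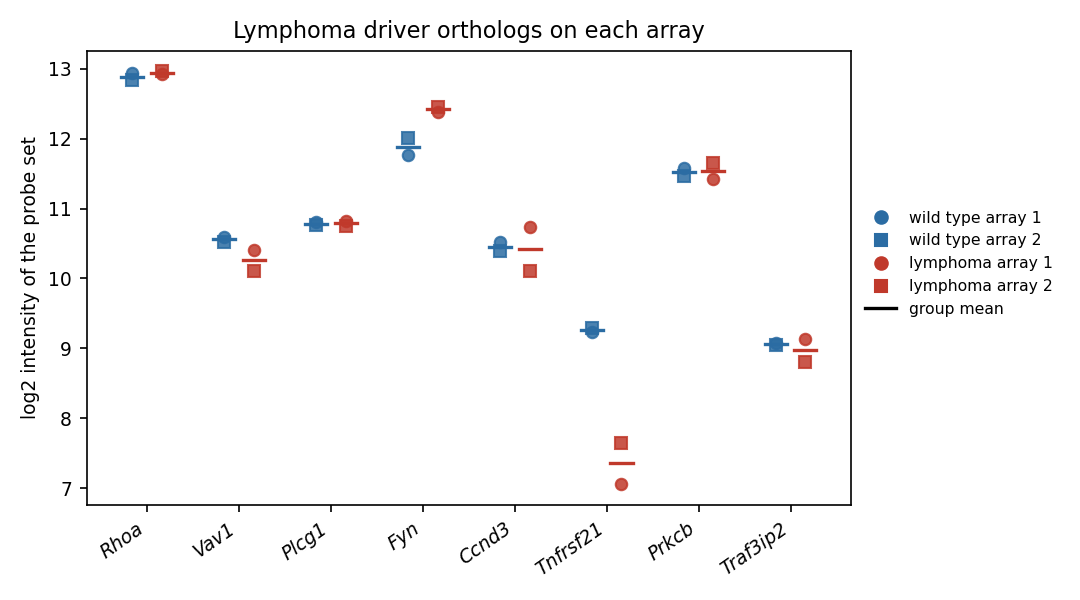
Log2 intensity (vertical axis) of the 8 genes on each of the 4 arrays, wild type in blue and lymphoma in red, with circles for array 1, squares for array 2 and bars for group means. Tnfrsf21 is low on both lymphoma arrays, Fyn is above both wild type values on both, and Ccnd3 spreads widely between the lymphoma arrays; heights of different genes are not comparable because each has its own probe set.

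Fyn, the Src family kinase, had intensities of 3465 and 4108 in wild type and 5338 and 5612 in lymphoma. Both lymphoma values lay above both wild type values, and the wild type pair was the more spread. The log2 difference was 0.54 (SE 0.16, 95% interval 0.16 to 0.91), with an unadjusted p of 0.0128 and an adjusted p of 0.146 in limma. The interval thus lay above 0 while the adjustment over all genes was not passed. It was between 0.41 and 0.66 when each array was left out in turn, and the lowest adjusted p under any alternative was 0.105, with the replicate block. The T cell markers Cd3e and Cd4 had log2 differences of 0.37 (SE 0.13) and 0.41 (SE 0.16). Over all 11 T cell markers the median was -0.037, with 5 positive and 6 negative differences from -1.56 to 0.63. The part of a changed cell mix in the Fyn value was not tested.

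Vav1, the exchange factor, had intensities of 1552 and 1465 in wild type and 1365 and 1108 in lymphoma. Both lymphoma values were the lower ones, with lymphoma array 2 the lowest. Its log2 difference was -0.29 (SE 0.18, 95% interval -0.74 to 0.15, adjusted p = 0.57, limma). Leaving out lymphoma array 1 gave -0.44 and leaving out lymphoma array 2 gave -0.14. Vav1, Fyn and Tnfrsf21 were the 3 of 8 genes whose groups did not overlap, which was the case for 44.1% of all genes (20.6% with lymphoma higher, as Fyn, and 23.5% with lymphoma lower, as Vav1 and Tnfrsf21).

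Rhoa, the GTPase, had intensities of 7841 and 7302 in wild type and 7741 and 7975 in lymphoma. The groups overlapped. The log2 difference was 0.05 (SE 0.13, 95% interval -0.26 to 0.37, adjusted p = 0.92, limma). A second Rhoa probe set, with the lower mean, had intensities of 6923 and 6140.3 in wild type and 6223 and 6431 in lymphoma, with a log2 difference of -0.04 (SE 0.14). The 2 probe sets thus differed in sign, and both intervals included 0.

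Plcg1, the phospholipase, had intensities of 1792 and 1733 in wild type and 1816 and 1724 in lymphoma. The 4 values nearly coincided, and the log2 difference was 0.0061 (SE 0.16, 95% interval -0.38 to 0.39). Prkcb, the protein kinase C beta gene, had intensities of 3047 and 2839 in wild type and 2753 and 3202 in lymphoma. Its lymphoma arrays bracketed the wild type arrays, and its log2 difference was 0.014 (SE 0.16, 95% interval -0.38 to 0.41). After quantile normalization both differences changed sign, to -0.040 for Plcg1 and -0.019 for Prkcb. Prkcb is strongly expressed in B cells as well as T cells, and its level stood beside a B cell marker sum that fell as given above. What part a changed cell mix had in the Prkcb value was not tested.

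Ccnd3, the D cyclin, had intensities of 1469 and 1339 in wild type and 1703 and 1102 in lymphoma. Lymphoma array 1 was the highest of the 4 and lymphoma array 2 the lowest, 0.63 log2 units apart, against a median gap of 0.21 between the lymphoma arrays over all genes. The log2 difference was -0.034 (SE 0.24, 95% interval -0.62 to 0.56), or 0.043 with array medians subtracted. Traf3ip2, the interleukin 17 receptor adaptor, had intensities of 542 and 529 in wild type and 564 and 447 in lymphoma. It showed the same order of lymphoma arrays, with a log2 difference of -0.093 (SE 0.20, 95% interval -0.57 to 0.38). In the RefSeq annotation of GRCm38.p6 Fyn and Traf3ip2 are neighbours, with 2 long non-coding RNA genes (Gm16364 and Gm40627) between them. Neither of those has a measured value here. The neighbours Fyn and Traf3ip2 had differences of opposite sign, and the difference between them was not tested.

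Apart from Tnfrsf21, every one of the 8 genes had a 95% interval that lay within 1 log2 unit of 0, which is 7 of 8. For Rhoa, Plcg1 and Prkcb it lay within 0.5 log2 units. The median log2 difference of the 8 genes was -0.014, and that of all 19938 genes was -0.039. These intervals limit the size of a change and do not show that levels were equal.

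**Figure D2:**
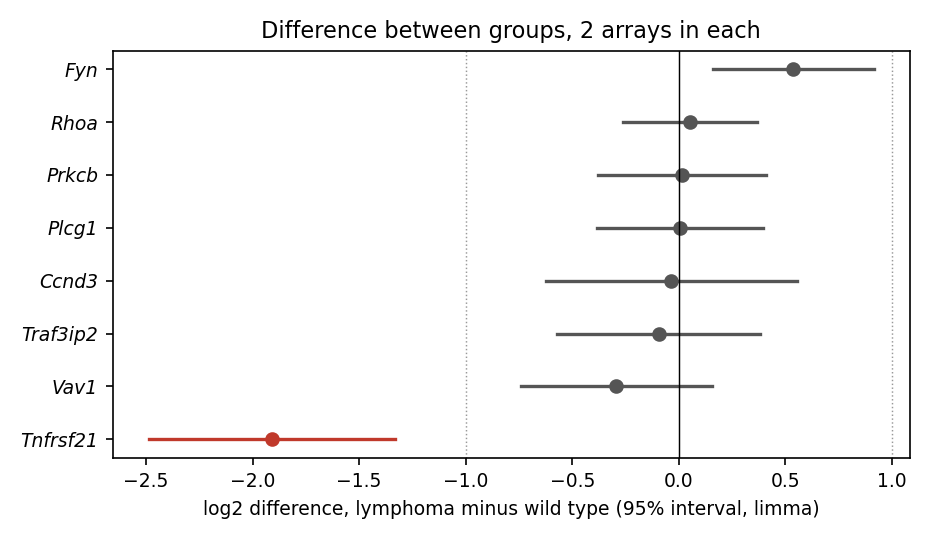
Log2 difference between lymphoma and wild type (horizontal axis) for each of the 8 genes, with points for the limma estimate, lines for its 95% interval and dotted lines at 1 log2 unit either way. Tnfrsf21 (red, adjusted p = 0.011) lies at -1.91 with its whole interval below -1, and Fyn at 0.54 has an interval above 0 but did not pass after adjustment.

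Close relatives of 6 of these genes were measured, with 10 paralogs in all. Of the 10, 2 were called, both lower, while 4.27% of all genes were called in either direction and 2.46% were called lower. Plcg2, the phospholipase C gamma of B cells and myeloid cells, fell 5.09-fold (log2 difference -2.35, SE 0.29, adjusted p = 0.011, limma). Its intensities were 1133 and 842 in wild type and 247 and 149 in lymphoma. Ccnd1, the cyclin D1 gene, fell 8.77-fold (log2 difference -3.13, SE 0.20, adjusted p = 0.0021, limma), from intensities of 1704 and 1481 to 166 and 198. The groups did not overlap for either gene. Leaving out wild type array 1 or 2 gave log2 differences of -2.13 and -2.56 for Plcg2, and -3.03 and -3.23 for Ccnd1. Both calls ended in those fits, as did the call on every other gene.

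The contrast with the driver ortholog was taken within each array. Plcg2 minus Plcg1 was -0.66 and -1.04 log2 units in wild type and -2.88 and -3.53 in lymphoma, a change of -2.35. Ccnd1 minus Ccnd3 was 0.21 and 0.15 in wild type and -3.36 and -2.48 in lymphoma, a change of -3.10. In both pairs the groups did not overlap, as was also so for Rhoc against Rhoa (a change of -0.49), Src against Fyn (-0.78) and Ccnd2 against Ccnd3 (0.305). That is 5 of the 10 pairs, while the groups did not overlap for 44.1% of all genes taken singly. For each of the 5 the two-sided exact permutation p of 0.333 is the smallest that 2 against 2 arrays can give (0.667 after Benjamini-Hochberg adjustment over the 10 pairs). The B cell, macrophage and dendritic cell markers that fell on these arrays are given above, and their part in the Plcg2 and Ccnd1 values was not tested.

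The other 8 paralogs did not pass. Ccnd2, the third D cyclin, had intensities of 3705 and 3224 in wild type and 5007 and 3473 in lymphoma (log2 difference 0.27, SE 0.21). Prkca, the protein kinase C alpha gene, had 2021 and 1591 in wild type and 3911 and 1701 in lymphoma. Its difference of 0.52 (SE 0.39) rested on lymphoma array 1, and without that array it was -0.076. Without lymphoma array 2 it was 1.13 and passed (adjusted p = 0.0039, limma). Yes1, a Src family kinase, had 37.6 and 54.2 in wild type and 60.8 and 188 in lymphoma. Its difference of 1.24 (SE 0.51) became 0.43 when lymphoma array 2 was left out, and 2.06 when lymphoma array 1 was left out, where it passed (adjusted p = 4.7e-05, limma). Rhob, Rhoc, Vav2, Vav3 and Src had log2 differences between -0.43 for Rhoc and -0.25 for Src and Rhob, and all 5 had adjusted p of 0.468 or higher in limma. Leaving out each array in turn gave -0.69 to 0.19 for Rhob, -0.66 to 0.083 for Vav3 and -0.70 to -0.17 for Rhoc, so the sign of Rhob and Vav3 depended on the arrays.

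**Figure D3:**
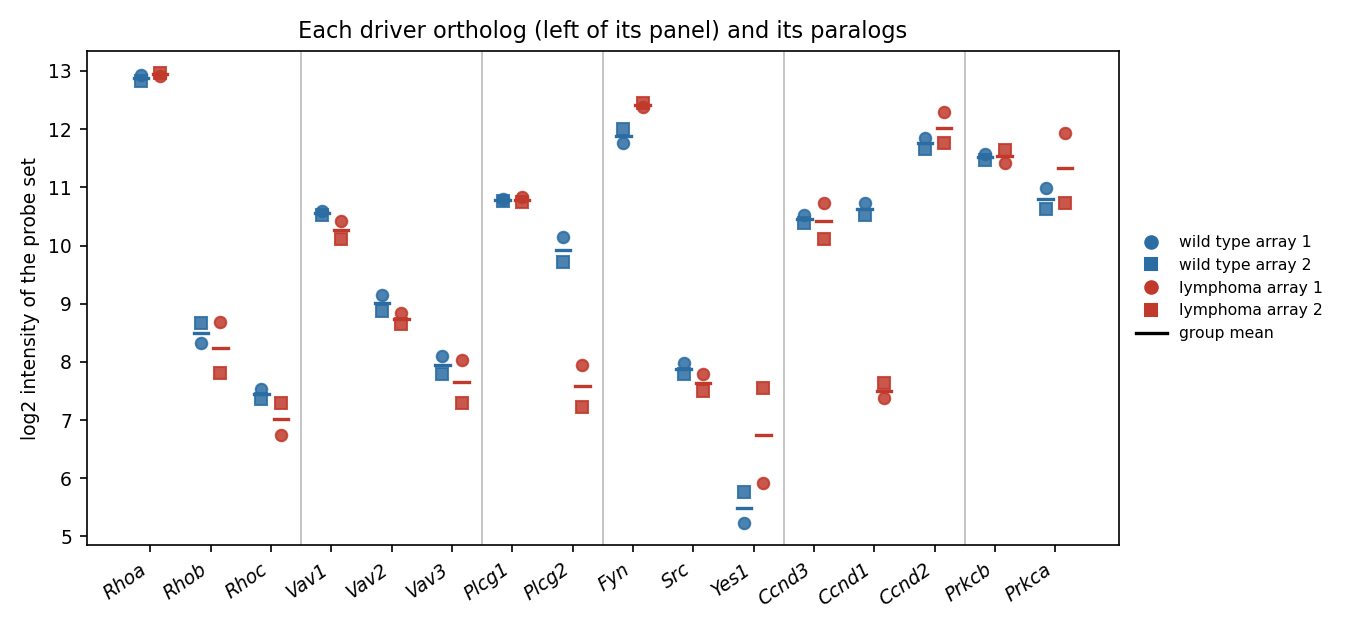
Log2 intensity (vertical axis) on each array for 6 driver orthologs, each followed in its panel by its measured paralogs, with wild type in blue, lymphoma in red, circles for array 1, squares for array 2 and bars for group means. Plcg2 and Ccnd1 drop on both lymphoma arrays while Plcg1 and Ccnd3 have overlapping groups; levels of different genes are not comparable.

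Other genes of the same pathways were taken from 7 lists of 163 genes, of which 149 were measured. Of the 149, 3 rose (2.01%) and 16 fell (10.7%), and 130 did not pass, whereas over all genes 1.82% rose and 2.46% fell. The median log2 difference was -0.037 for these genes and -0.039 for all genes. The lists were written with earlier results of these data known, so their shares are descriptive and no independent result. With the lowest tercile of genes by mean level left out, 398 of 13292 genes rose and 488 fell, beside 3 and 16 genes of the lists. With either wild type array left out none of the 149 passed. The same held for every gene measured, so the loss of calls in these fits, given list by list below, is particular to no list. Without lymphoma array 1 there were 9 rises and 27 falls, and without lymphoma array 2 there were 11 and 22. With all probe sets tested 1 rose and 9 fell, and with the replicate number as a block 5 rose and 18 fell.

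In the list of small GTPases and their exchange factors 1 of 25 measured genes rose and 1 fell, with a median of -0.25. Tiam1, an exchange factor for Rac, rose 2.10-fold, from intensities of 307 and 328 to 753 and 590.1 (log2 difference 1.07, SE 0.20, adjusted p = 0.041, limma). Arhgef1, an exchange factor for RhoA itself, fell 1.87-fold, from 2324 and 2090.3 to 1280.1 and 1088 (log2 difference -0.90, SE 0.18, adjusted p = 0.049). The call on Arhgef1 ended with array medians subtracted (0.054), with a pseudocount of 50 (0.054), without the variance trend (0.061) and with all probe sets tested (0.102). The call on Tiam1 ended with the replicate block (0.053) and with all probe sets tested (0.094). Without either wild type array in turn, adjusted p for both lay between 0.246 and 0.311.

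In the phospholipase C gamma, protein kinase C and calcium list 4 of 24 genes fell, none rose, and the median was -0.031. Rasgrp2, a Ras family exchange factor regulated by calcium and diacylglycerol, fell 6.26-fold, from intensities of 1368 and 1031 to 155 and 232 (log2 difference -2.65, SE 0.26, adjusted p = 0.0065, limma). Its relative Rasgrp1, the diacylglycerol-activated Ras exchange factor of T cells, fell 2.10-fold, from 3242 and 2946 to 1560 and 1388 (adjusted p = 0.023). Ppp3ca, a catalytic subunit of calcineurin, fell 3.05-fold, from 1189 and 999 to 424 and 301 (adjusted p = 0.018), and the fourth was Plcg2. The calls on Rasgrp1 (0.059) and Ppp3ca (0.054) ended with all probe sets tested. Without either wild type array in turn, adjusted p for the 4 lay between 0.081 and 0.22. B cell, macrophage and dendritic cell markers fell on the same arrays, and their part in these values was not tested.

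Of 19 measured genes for Src family kinases, their regulators and adaptors, 5 fell and none rose, with a median of -0.12. Pag1, a membrane adaptor that brings the inhibitory kinase Csk to Src family kinases, fell 5.01-fold, from intensities of 553 and 334 to 97.6 and 75.4 (log2 difference -2.33, SE 0.28, adjusted p = 0.011, limma). Grap2, an adaptor that links the scaffold Lat to Lcp2, fell 4.14-fold, from 2609 and 2714 to 623 and 664 (adjusted p = 0.0037). Fgr, a Src family kinase of myeloid cells, fell 4.79-fold from 814 and 709.8 to 181 and 139. Blk, the Src family kinase of B cells and itself one of the B cell markers counted above, fell 3.91-fold, from 969 and 622 to 189 and 208. Lat was the fifth and lies outside the naming rule, being named after its value was seen. Without either wild type array in turn, adjusted p for the 4 genes named by the rule lay between 0.0675 and 0.125. The part of the falling B cell and myeloid markers in these values was not tested.

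In the D cyclin and RB/E2F list 1 of 16 genes rose and 1 fell, with a median of 0.31 and 10 positive differences. Cdk6, a kinase that D cyclins activate, rose 3.35-fold, from intensities of 1114 and 1135 to 3657 and 3874 (log2 difference 1.74, SE 0.16, adjusted p = 0.0051, limma). The arrays of each group agreed closely. The fall was that of Ccnd1, and adjusted p for the 2 genes without either wild type array in turn lay between 0.0623 and 0.11.

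In the interleukin 17 receptor and TRAF list 2 of 17 genes fell, none rose, and the median was -0.067. Il17ra, the shared chain of the interleukin 17 receptors to which Act1 binds, fell 2.34-fold, from intensities of 1422 and 1201 to 535 and 584 (log2 difference -1.23, SE 0.19, adjusted p = 0.021, limma). Tnfrsf13c, the receptor for the B cell survival factor BAFF, fell 3.46-fold, from 2827 and 1746 to 748 and 549.6 (adjusted p = 0.024). With all probe sets tested the adjusted p was 0.056 for Il17ra and 0.069 for Tnfrsf13c. Without either wild type array in turn it lay between 0.0943 and 0.201 for the 2 genes. B cell markers fell on the same arrays, as given above.

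In the death domain receptor list 1 of 13 genes fell, none rose, and the median was 0.14. App, the amyloid precursor protein, which has been described as a binding partner of death receptor 6, fell 3.71-fold, from intensities of 780.3 and 599.7 to 209.7 and 162 (log2 difference -1.89, SE 0.23, adjusted p = 0.011, limma). A larger absolute difference than that of App was found in 1.55% of all genes. Any link between its fall and the -1.91 of Tnfrsf21 was not tested. With either wild type array left out, the adjusted p of App lay between 0.0894 and 0.142. The part of the falling myeloid and B cell markers in this value was not tested.

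Among other genes altered in human peripheral T cell lymphoma, 1 of 35 measured genes rose and 2 fell, with a median of -0.037. Icos, a costimulatory receptor, rose 2.29-fold, from intensities of 2351 and 2308 to 4541 and 6242 (adjusted p = 0.026, limma). Syk, a kinase of B cell and myeloid receptors, fell 4.66-fold, from 1500.4 and 1111 to 327 and 235 (adjusted p = 0.0088). Gpr183, a receptor that guides B cells and T cells within lymphoid tissue, fell 2.68-fold, from 2184 and 2080.2 to 676 and 935 (adjusted p = 0.020, limma). The call on Icos ended after quantile normalization (0.052), and those on Icos (0.071) and Gpr183 (0.056) ended with all probe sets tested. Without either wild type array in turn, adjusted p for the 3 lay between 0.0859 and 0.235. B cell and myeloid markers fell with Syk and Gpr183, and their part in these values was not tested.

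**Figure D4:**
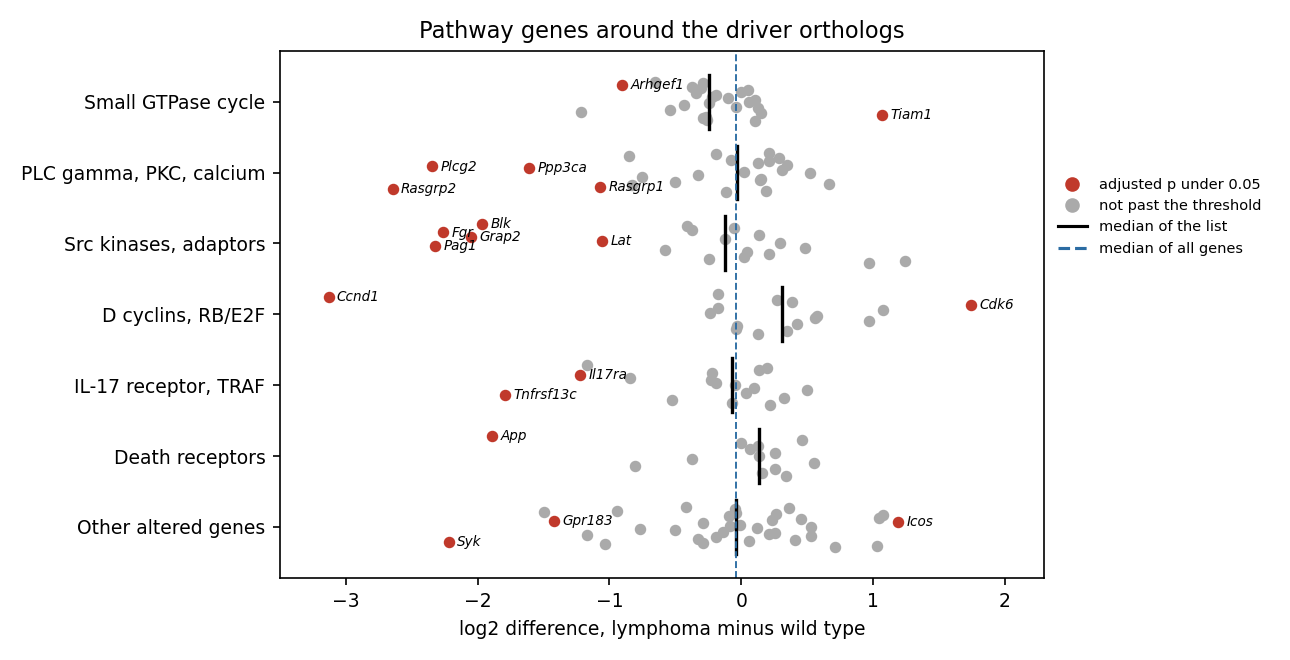
Log2 difference between lymphoma and wild type (horizontal axis) for every measured gene of 7 pathway lists (rows), with red named points for adjusted p under 0.05, grey points for the rest, black bars for list medians and a dashed line for the median of all genes. Of 149 genes 130 are grey, 16 fell and 3 (Tiam1, Cdk6 and Icos) rose.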

How the data were processed

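The authors' deposited values are linear intensity values, 1 per probe set and array, made with Affymetrix Expression Console per the submitters' processing notes. The sources used here do not say how they were summarised, background corrected or normalized. Without detection calls, a change of a weakly expressed gene may be understated. All 4 arrays entered. Log2 was taken with no pseudocount or filter. GEO's platform annotation gave 1 symbol to 21789 probe sets, several to 1621 and none to 12146. Of the 21789, 21698 matched RefSeq (GRCm38.p6) by identifier. The probe set with the highest mean stood for each of 19938 genes.

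The test was that of limma 3.58.1 in R 4.3.3, two-sided, on a model of group alone with a trend of variance on level. Its p-values were adjusted over all genes by Benjamini-Hochberg. An adjusted p under 0.05 was a call. There were 2 residual and 4.24 prior degrees of freedom. The number of arrays limits the precision.

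The 8 genes and all lists were chosen with earlier results of these data known. Named genes are the 8, their paralogs, up to 4 called genes per pathway list and direction, the 3 nearest profiles of a called member, Tet2 and cell markers. Alternatives are given in the closing section. Figures were drawn with matplotlib 3.10.9.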

Additional observations from a re-analysis of the deposited data

How the results depend on the processing

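Tnfrsf21 stayed called in all 9 alternatives that kept every array, with log2 differences from -1.91 to -1.63 and adjusted p from 0.0051 to 0.041 (limma). Leaving out each array gave -2.20 to -1.62. The other 7 genes were called under none of the 13 alternatives. Signs changed to -0.040 for Plcg1 and -0.019 for Prkcb after quantile normalization, and to 0.043 for Ccnd3 with array medians subtracted. Leave-one-out values ran from -0.031 to 0.043 for Plcg1, -0.095 to 0.12 for Prkcb, -0.35 to 0.28 for Ccnd3, -0.26 to 0.074 for Traf3ip2, -0.44 to -0.14 for Vav1, 0.0030 to 0.11 for Rhoa and 0.41 to 0.66 for Fyn. The cause of these shifts was not tested.

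With all probe sets tested, which adjusts over 35556 tests, 120 genes were higher and 244 lower, against 362 and 490, and 1 and 9 pathway genes were called higher and lower, against 3 and 16. The replicate block gave 5 higher pathway genes. Leave-one-out counts ran from 0 to 1057 higher and 0 to 843 lower genes, from 0 to 11 and 0 to 27 for pathway genes, and from 0 to 1 for members called lower, with 0 members called higher. At an unadjusted p under 0.05, 1418 genes were higher and 890 lower without wild type array 1, and 929 and 1120 without wild type array 2. With an array left out, the lone sample of its group is assumed to vary like the other group. Every call ended in both fits without a wild type array, so its end there is not particular to any gene or list.

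The replicate numbers are shared by both groups without a stated pairing. Deviations of same-numbered arrays from their group means correlated at r = 0.23 over 19938 genes, and with the replicate block Tnfrsf21 had an adjusted p of 0.013 and the genes called were 429 higher and 555 lower.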
